A study of Mus musculus with 24 samples.

Results

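The AP-1 and EGR immediate early genes described here are 10 genes chosen by name, *Fos*, *Fosb*, *Fosl1*, *Fosl2*, *Jun*, *Junb*, *Jund*, *Egr1*, *Egr2* and *Egr3*. They were chosen with earlier results of these data known. All 10 were found among the 24411 genes of each of 6 deposited tables. Immediate early genes are transcribed soon after a cell receives a signal, by factors that are already present. FOS and JUN proteins pair through leucine zippers to form the transcription factor AP-1, while EGR proteins bind GC-rich DNA through zinc fingers. In glia, both families are known to respond to growth factors, cytokines and injury through MAP kinase signalling.

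The study sequenced polyadenylated RNA from cultured mouse glia that carried the SOD1G93A transgene, a model of familial amyotrophic lateral sclerosis bred into C57BL/6J mice, or did not (WT). It asked whether the transgene changes astrocytes and microglia by itself, at rest and after activation. Astrocytes were taken at postnatal day 5 from the forebrain by immunopanning on HepaCAM, after negative panning for microglia, endothelial cells and oligodendrocyte lineage cells. Their serum-free medium contained HBEGF, a ligand of the EGF receptor. Microglia were taken at postnatal days 7 to 10 from perfused whole brains by magnetic separation on CD11b, and their serum-free medium contained TGF-β2, IL-34 and cholesterol. Quiescent cells of both kinds received PBS. Activated astrocytes received IL-1α at 3, TNFα at 30 and C1q at 400 ng/ml, and LPS-activated microglia received LPS at 50 ng/ml. The labels give no duration of treatment, sex or number of animals for a culture.

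Values were available for 21 libraries, 3 in each of 7 conditions: WT and SOD1G93A quiescent astrocytes, WT and SOD1G93A activated astrocytes, WT quiescent microglia, and WT and SOD1G93A LPS-activated microglia. The other 3 of 24 samples, quiescent SOD1G93A microglia, had no column in these tables. The shallowest library held 2016139 reads on genes and the deepest 11570122 (median 5098168). WT activated astrocyte libraries held 5047999 to 6768201 reads and SOD1G93A activated ones 2135439 to 3929272, so depth and genotype cannot be told apart in that comparison. Levels are given below in reads-per-million units (RPM), the reads of a gene scaled to the library's reads on genes, and 3 reads corresponded to 0.259 to 1.49 RPM in the different libraries. Such limits cover counting error only. Labels do not say whether replicates were separate cultures, so p-values measure the spread between samples and no more.

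Marker genes were checked against the labelled cell types. A list of 10 microglial markers summed to 9080 to 9634 RPM in WT quiescent microglia, to 2878 to 4983 in LPS-activated microglia, and to 149.8 to 340.2 in the astrocyte libraries, where *Csf1r* was among the 2 most abundant and none of the 10 was at 0 in a whole condition. Astrocyte markers, also 10, summed to 4272 to 6349 RPM in astrocytes, led by *Slc1a3*, and to 139 to 235 in microglia. Oligodendrocyte lineage markers summed to 2831 to 3437 in quiescent astrocytes, led by *Olig1* at 1799 in WT and 2122 in SOD1G93A cells, and to 1016 to 1108 in activated astrocytes, while *Mog* had at most 3 reads in every library. In microglia that list was mostly *Cspg4*, whose mean was 1229 RPM in quiescent, 65.6 in WT LPS-activated and 144 in SOD1G93A LPS-activated cells. The sum of 6 endothelial markers was 6.61 to 13.4 RPM in quiescent and 111 to 153 in activated astrocytes, a difference carried by *Flt1* alone (4.62 to 10.4 and 110.05 to 150.28 RPM), and the 1 of 6 that could be tested there was called higher (log2 4.02 in WT and 4.41 in SOD1G93A cells). They came to 24.7 to 75.3 in microglia, led by *Flt1* or *Kdr*, with *Cldn5* at 0 in all 7 conditions. Pericyte and fibroblast markers came to 77.7 to 165 in astrocytes and 27.2 to 51.1 in microglia, led by *Tagln* or *Acta2*. With activation 2 of 6 tested were called higher and 2 lower in WT astrocytes (median log2 -0.04), and 3 of 5 higher and 0 lower in SOD1G93A astrocytes (median 1.21), against 6% and 6.74% of all genes called higher. Neuronal markers came to 38.9 to 62.2 in astrocytes and 1.98 to 6.40 in microglia, led by *Syp*, *Tubb3* or *Stmn2*. In these bulk libraries fewer cells of a type and less RNA per cell cannot be told apart.

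A few libraries stood apart from the others of their group. Between libraries of 1 group, the chi-square per degree of freedom of the read counts would be 1 under counting error alone and lay between 1.48 and 2.78 for most pairs. Replicate 3 of SOD1G93A LPS-activated microglia gave 15.7 and 20.3 against the other replicates, replicate 1 of WT LPS-activated microglia 14 and 12.8, replicate 3 of WT quiescent astrocytes 8.97 and 6.5, and replicate 1 of SOD1G93A quiescent astrocytes 6.47 and 9.87. Replicate 3 of SOD1G93A LPS-activated microglia also held the highest microglial marker sum of its group, 4983 RPM beside 3377 and 3267, and the highest *Cspg4*, 212 beside 112 and 107. Comparisons that use these libraries are given below with and without them where that changed a call.

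**Figure D1:**
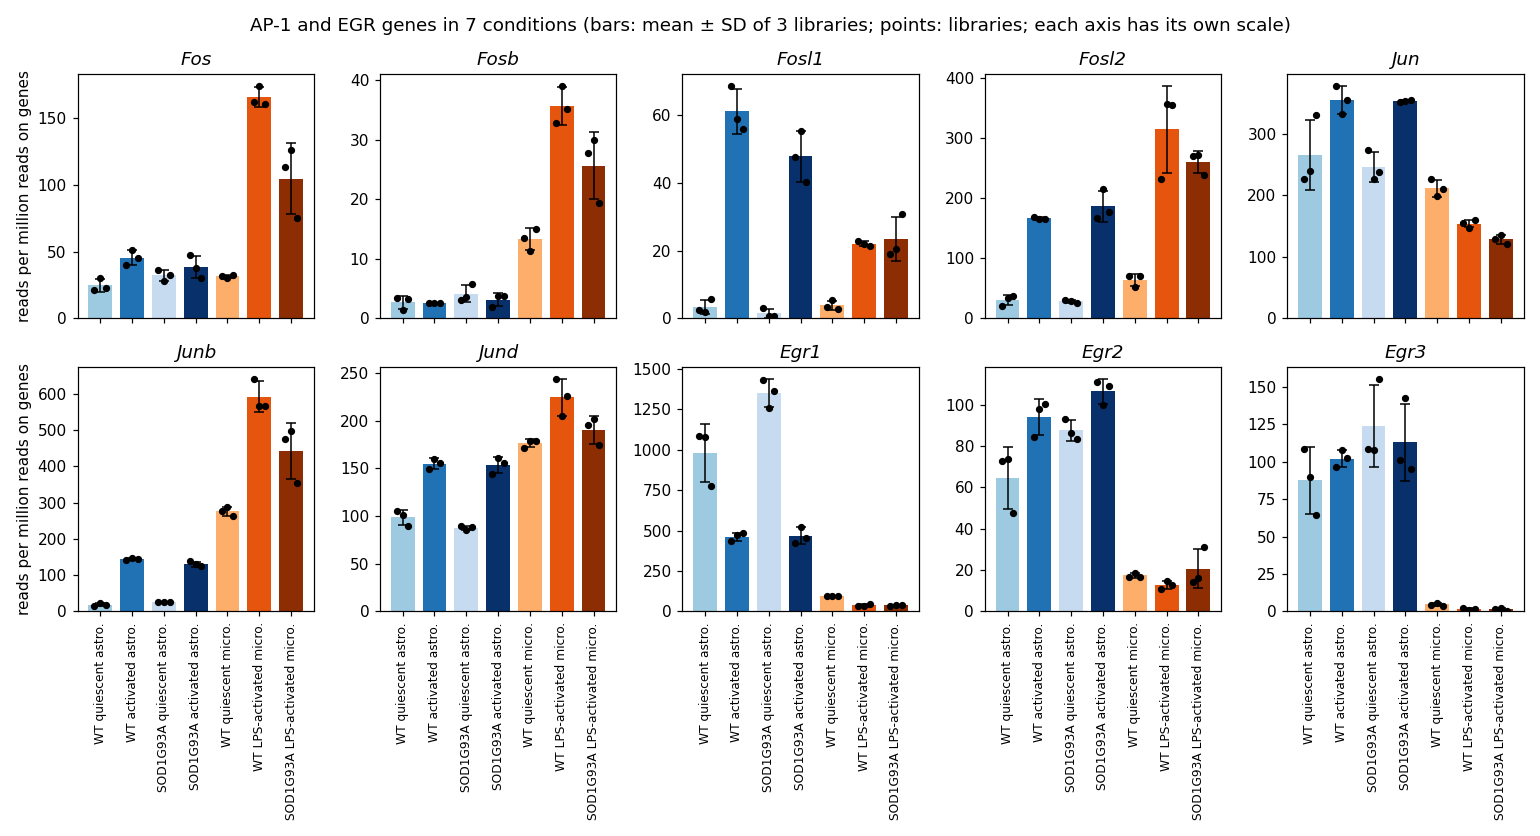
RPM of each of the 10 genes in the 7 conditions, with the mean (bar), SD (error bar) and each of 3 libraries (points), and a separate linear axis for each gene. *Egr1* was highest in quiescent astrocytes (980 and 1352 RPM), whereas *Junb* was highest in LPS-activated microglia (592 in WT and 443 in SOD1G93A cells).

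Each comparison was tested with limma on log2 normalized counts across all genes with a mean normalized count of at least 10, and a gene was called when its p, adjusted over all genes tested, was below 0.001 and its change exceeded 2-fold. In WT astrocytes, IL-1α, TNFα and C1q moved 4 of the 10 genes past these limits, against 11.5% of all 12336 genes tested. *Fosl1*, *Fosl2* and *Junb* rose (3 of 10, against 6% of all genes called higher) and *Egr1* fell (1 of 10, against 5.54% called lower). The same 4 genes were called in SOD1G93A astrocytes, in the same directions, where 13.1% of 12203 genes were called, 6.74% higher and 6.4% lower. LPS moved 6 of 10 in WT microglia, against 20.8% of 10866 genes. *Fos*, *Fosb*, *Fosl1*, *Fosl2* and *Junb* rose (5 of 10, against 10.2% higher), and *Egr1* fell (1 of 10, against 10.6% lower). Levels of *Jun*, *Jund*, *Egr2* and *Egr3* did not pass both limits in any of these 3 comparisons. With LPS in WT microglia 7 of 10 microglial markers were called lower and 0 higher (median log2 -2.01). Astrocyte markers gave 2 higher of 9 there, and pericyte and fibroblast markers 1 higher of 6. Endothelial markers gave 2 higher and 1 lower of 3, and oligodendrocyte lineage markers 2 lower of 5. The part of these lists in the LPS result was not tested.

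**Figure D2:**
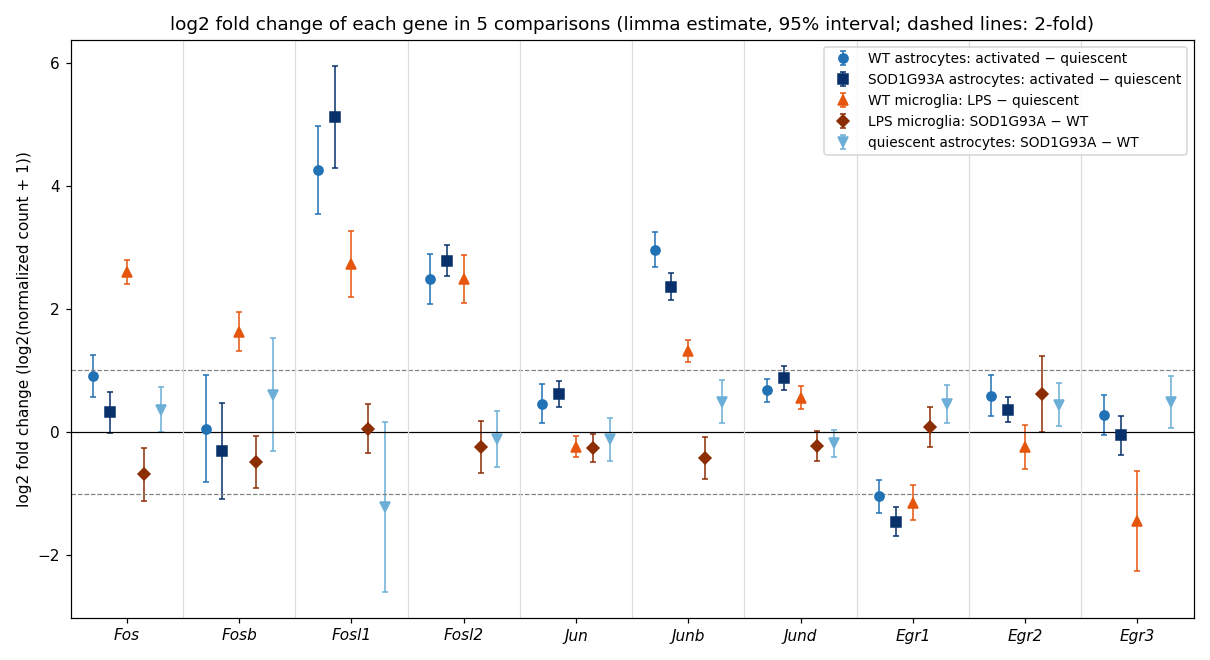
Log2 fold change of normalized counts for each gene in 5 comparisons, with the limma estimate (point) and its 95% interval (bar), and dashed lines at a 2-fold change. *Fosl1* had the largest estimates, 4.26 and 5.12 in WT and SOD1G93A astrocytes, and *Egr1* lay below 0 in the 3 activation comparisons, at -1.04, -1.46 and -1.15. No value is drawn for *Egr3* between the LPS-activated genotypes, where its mean was too low to test.

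Among the FOS family, *Fos* (chromosome 12, 85473890 to 85477273, plus strand, GRCm38), the prototype of the family, separated LPS-activated microglia from all other conditions. It was at 21.3, 30.2 and 22.9 RPM in WT quiescent astrocytes, 40.0, 51.4 and 45.6 in WT activated, 36.4, 28.1 and 32.5 in SOD1G93A quiescent and 47.3, 38.2 and 30.4 in SOD1G93A activated astrocytes. In microglia it was at 32.0, 30.2 and 32.6 in the WT quiescent, 162, 174 and 161 in the WT LPS-activated and 113, 126 and 74.9 in the SOD1G93A LPS-activated libraries. All 6 LPS libraries lay above the other 15, and replicate 3 of the SOD1G93A cells was the lowest of them. In order, the means were 166 ± 7.44 (SD, n = 3 here and below) in WT LPS-activated microglia, 105 ± 26.7 in SOD1G93A LPS-activated microglia, 45.7 ± 5.70 in WT activated astrocytes, 38.6 ± 8.43 in SOD1G93A activated astrocytes, 32.4 ± 4.15 in SOD1G93A quiescent astrocytes, 31.6 ± 1.24 in WT quiescent microglia and 24.8 ± 4.76 in WT quiescent astrocytes. Neighbours among the last 5 had overlapping ranges. With LPS, *Fos* rose 6.06-fold in WT microglia, in 3 of 3 libraries (log2 2.60, SE 0.09, adjusted p = 3.6e-09). In astrocytes it was not called: the log2 change was 0.91 in WT (adjusted p = 0.00067, under 2-fold) and 0.32 in SOD1G93A cells (adjusted p = 0.12). Without replicate 2 of the WT quiescent astrocytes the WT change was 1.05 and passed both limits.

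*Fosb* (chromosome 7, 19302696 to 19310051, minus strand), a close relative of *Fos* whose product also pairs with JUN proteins, was scarce in astrocytes. Its 12 astrocyte libraries held 5 to 30 reads each, or 1.37 to 5.77 RPM. In microglia it was at 13.5, 11.4 and 15.0 RPM in the WT quiescent, 32.8, 39.0 and 35.1 in the WT LPS-activated and 27.7, 29.9 and 19.3 in the SOD1G93A LPS-activated libraries. Those 3 groups did not overlap with each other or with any astrocyte group. The means fell in the order 35.6 ± 3.18, 25.6 ± 5.60 and 13.3 ± 1.82 in these microglia, then 4.13 ± 1.44 in SOD1G93A quiescent, 3.15 ± 1.10 in SOD1G93A activated, 2.696 ± 1.15 in WT quiescent and 2.57 ± 0.0494 in WT activated astrocytes, and neighbours among the 4 astrocyte groups overlapped. LPS raised *Fosb* 3.10-fold in WT microglia (log2 1.63, SE 0.14, adjusted p = 3.5e-06, higher in 3 of 3). In activated against quiescent WT astrocytes its log2 change was 0.05, with a 95% interval from -0.82 to 0.92, and its direction changed with the scaling (-0.17 after quantile normalization), so no direction is given.

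*Fosl1* (chromosome 19, 5447547 to 5455946, plus strand), which encodes the subunit FRA1, had the largest change of the 10 in astrocytes. It was at 2.48, 1.92 and 5.72 RPM in WT quiescent and 68.7, 59.0 and 55.8 in WT activated astrocytes, and at 3.15, 0.827 and 0.607 in SOD1G93A quiescent and 47.8, 55.5 and 40.3 in SOD1G93A activated ones. Every activated library was far above every quiescent library of either genotype, and the quiescent ones held as few as 2 reads. WT quiescent microglia had 3.35, 5.49 and 2.74 RPM, WT LPS-activated microglia 23.0, 22.0 and 21.4, and SOD1G93A LPS-activated microglia 19.1, 20.4 and 30.9. From the top, the means were 61.2 ± 6.73 in WT and 47.9 ± 7.604 in SOD1G93A activated astrocytes, 23.5 ± 6.48 in SOD1G93A and 22.1 ± 0.827 in WT LPS-activated microglia, 3.86 ± 1.45 in WT quiescent microglia, 3.38 ± 2.05 in WT quiescent and 1.53 ± 1.41 in SOD1G93A quiescent astrocytes. The LPS-activated pair overlapped, as did neighbours among the 3 quiescent groups. The rise was 19.2-fold in WT astrocytes (log2 4.26, SE 0.32, adjusted p = 1.7e-06), 34.7-fold in SOD1G93A astrocytes (log2 5.12, SE 0.39, adjusted p = 2.5e-08) and 6.65-fold in WT microglia (log2 2.73, SE 0.24, adjusted p = 3.9e-06), in 3 of 3 libraries each. Over the alternatives the log2 values ran from 3.87 to 4.72, from 4.36 to 5.75 and from 2.29 to 3.02, so these folds are approximate. *Ccdc85b*, on the other strand, overlaps *Fosl1* by 2767 bases and reached 89.0 RPM. The kit kept strand, but whether the counting did was not found in the labels or tables, so part of the *Fosl1* reads could not be assigned with certainty.

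*Fosl2* (chromosome 5, 32135801 to 32157842, plus strand), which encodes FRA2, rose in both cell types. It was at 21.3, 33.5 and 37.9 RPM in WT quiescent astrocytes, 169, 166 and 166 in WT activated, 30.1, 28.3 and 26.4 in SOD1G93A quiescent and 168, 216 and 177 in SOD1G93A activated astrocytes. WT quiescent microglia had 70.5, 52.9 and 69.9, WT LPS-activated 232, 357 and 356, and SOD1G93A LPS-activated 270.2, 272 and 238. Activated and quiescent libraries did not overlap within a cell type, and replicate 1 of WT LPS-activated microglia was low for its group. Means ran from 315 ± 72.1 in WT and 260.2 ± 19.1 in SOD1G93A LPS-activated microglia through 187 ± 25.8 in SOD1G93A and 167 ± 1.66 in WT activated astrocytes to 64.4 ± 9.97 in WT quiescent microglia, 30.9 ± 8.59 in WT and 28.3 ± 1.85 in SOD1G93A quiescent astrocytes. Each of the 3 pairs of genotypes in that order overlapped. Folds were close in the 3 activation comparisons, 5.61 in WT astrocytes (log2 2.49, SE 0.18, adjusted p = 1.4e-06), 6.90 in SOD1G93A astrocytes (log2 2.79, SE 0.12, adjusted p = 2.6e-11) and 5.60 in WT microglia (log2 2.49, SE 0.18, adjusted p = 7.6e-07).

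Within the JUN family, *Junb* (chromosome 8, 84974484 to 84978718, minus strand), whose product is a weaker activator than JUN, showed the widest range. It was at 15.9, 22.5 and 18.04 RPM in WT quiescent astrocytes, 141, 148 and 145 in WT activated, 27.0, 27.2 and 25.8 in SOD1G93A quiescent and 138, 129.5 and 125 in SOD1G93A activated astrocytes. In microglia it was at 277, 289 and 263 in the WT quiescent, 642, 567 and 568 in the WT LPS-activated and 476, 498 and 354 in the SOD1G93A LPS-activated libraries. On this scale none of the 7 groups overlapped with another. The means descended in the order 592 ± 43.1, 443 ± 77.9 and 276 ± 12.6 in WT LPS-activated, SOD1G93A LPS-activated and WT quiescent microglia, then 144 ± 3.53, 131 ± 6.71, 26.7 ± 0.731 and 18.8 ± 3.40 in WT activated, SOD1G93A activated, SOD1G93A quiescent and WT quiescent astrocytes. Activation raised it 7.81-fold in WT astrocytes (log2 2.97, SE 0.13, adjusted p = 3.7e-08), 5.14-fold in SOD1G93A astrocytes (log2 2.36, SE 0.10, adjusted p = 3.2e-11) and 2.48-fold in WT microglia (log2 1.31, SE 0.08, adjusted p = 2.5e-07). *Prdx2*, on the other strand, overlaps *Junb* by 351 bases and reached 271 RPM, which leaves the same doubt about strand as for *Fosl1*.

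*Jun* (chromosome 4, 95049034 to 95052222, minus strand), which encodes the strongest activator of the JUN proteins, moved little. It was at 227, 240.3 and 331 RPM in WT quiescent astrocytes, 378, 333 and 355 in WT activated, 273, 226 and 238 in SOD1G93A quiescent and 353, 354 and 355 in SOD1G93A activated astrocytes. Microglia held 226, 199 and 209.8 in the WT quiescent, 156, 148 and 159.6 in the WT LPS-activated and 129, 136 and 121 in the SOD1G93A LPS-activated libraries. Activated astrocytes lay above all other libraries and LPS-activated microglia below all others, but 6 of the 7 conditions changed place in the order when size factors over the 21 libraries replaced RPM. The ordered means were 355 ± 22.7 and 354 ± 1.46 in WT and SOD1G93A activated astrocytes, 266 ± 56.5 and 246 ± 24.5 in WT and SOD1G93A quiescent astrocytes, 212 ± 13.7 in WT quiescent microglia, and 154 ± 6.06 and 129 ± 7.21 in WT and SOD1G93A LPS-activated microglia. Both pairs of astrocyte genotypes overlapped, as did SOD1G93A quiescent astrocytes and WT quiescent microglia. Estimated log2 changes were 0.46 in WT astrocytes (adjusted p = 0.026), 0.61 in SOD1G93A astrocytes (adjusted p = 0.0001) and -0.24 in WT microglia (adjusted p = 0.024), all under 2-fold.

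*Jund* (chromosome 8, 70698949 to 70700616, plus strand), a JUN protein also made in resting cells, moved in the same direction with activation in both cell types. Its library values ran from 90.1 to 106 RPM in WT quiescent, 149 to 160.0 in WT activated, 85.6 to 89.9 in SOD1G93A quiescent and 144 to 161 in SOD1G93A activated astrocytes, and from 172 to 179 in WT quiescent, 205 to 243 in WT LPS-activated and 174 to 202 in SOD1G93A LPS-activated microglia. The order of the means was WT LPS-activated microglia at 225 ± 19.4, SOD1G93A LPS-activated microglia at 191 ± 14.6, WT quiescent microglia at 177 ± 4.07, WT and SOD1G93A activated astrocytes at 155 ± 5.58 and 153 ± 8.70, and WT and SOD1G93A quiescent astrocytes at 98.8 ± 7.95 and 88.0 ± 2.14. SOD1G93A LPS-activated and WT quiescent microglia overlapped, as did the activated astrocyte genotypes. With activation its log2 change was 0.68 in WT astrocytes (adjusted p = 8.1e-05), 0.88 in SOD1G93A astrocytes (adjusted p = 9.5e-07) and 0.56 in WT microglia (adjusted p = 0.0002), higher in 3 of 3 libraries each time but under 2-fold. Annotated antisense transcripts overlap both *Jun* and *Jund* and were not listed in the tables.

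Of the EGR factors, *Egr1* (chromosome 18, 34859823 to 34864984, plus strand), a direct target of growth factor signalling, fell with activation in both cell types. It was at 1084, 1081 and 776 RPM in WT quiescent astrocytes, 435, 472 and 482 in WT activated, 1432, 1259 and 1364 in SOD1G93A quiescent and 422, 525 and 454 in SOD1G93A activated astrocytes. WT quiescent microglia had 92.7, 92.9 and 97.3, WT LPS-activated 33.4, 32.8 and 44.7, and SOD1G93A LPS-activated 35.0, 39.0 and 42.0. Every quiescent astrocyte library exceeded every activated one, every astrocyte library exceeded every microglial one, and replicate 3 of WT quiescent astrocytes was low for its group. In descending order, means were 1352 ± 87.5 in SOD1G93A and 980.3 ± 177 in WT quiescent astrocytes, 467 ± 52.6 in SOD1G93A and 463 ± 24.9 in WT activated astrocytes, 94.3 ± 2.55 in WT quiescent microglia, and 38.7 ± 3.54 in SOD1G93A and 36.9 ± 6.73 in WT LPS-activated microglia. The activated astrocyte genotypes overlapped, and so did the LPS-activated microglia. Activation lowered it in SOD1G93A astrocytes (log2 -1.46, SE 0.11, adjusted p = 2.7e-08) and in WT microglia (log2 -1.15, SE 0.13, adjusted p = 2.2e-05), in 3 of 3 libraries. In WT astrocytes the log2 change of -1.04 (SE 0.12, adjusted p = 4.6e-05) was just past 2-fold: it was -0.98 without replicate 1 and -0.97 without replicate 2 of the quiescent and -0.99 without replicate 1 of the activated libraries, and the call was then lost. It was also lost without a trend (adjusted p = 0.0015) and with a depth class term (log2 -0.995), so 15 of 20 recomputed values kept it. The summed oligodendrocyte lineage markers, led by *Olig1* at rest, were also lower in activated astrocytes (1016 to 1108 RPM, against 2831 to 3437), and 3 of the 8 tested were called lower in each genotype, against 5.54% of all genes in WT and 6.4% in SOD1G93A cells (medians of the 8 at log2 -0.53 and -0.36). Of 10 astrocyte markers 0 were called higher and 3 lower in WT (median -0.81), and 1 higher and 2 lower in SOD1G93A astrocytes (median -0.36). The part of either list in the *Egr1* result was not tested.

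*Egr2* (chromosome 10, 67535475 to 67542188, plus strand), known for its role in myelinating Schwann cells, was also higher in astrocytes than in microglia. It was at 72.9, 73.7 and 47.5 RPM in WT quiescent astrocytes, 84.2, 97.8 and 100.4 in WT activated, 93.3, 86.3 and 83.2 in SOD1G93A quiescent and 111, 99.8 and 109 in SOD1G93A activated astrocytes. Microglia held 16.8, 18.8 and 16.9 in the WT quiescent, 10.8, 14.7 and 12.6 in the WT LPS-activated and 14.4, 16.1 and 31.4 in the SOD1G93A LPS-activated libraries. Replicate 3 of the last group was the highest of all microglia. Ordered means were 107 ± 6.005 and 94.1 ± 8.69 in SOD1G93A and WT activated astrocytes, 87.6 ± 5.17 and 64.7 ± 14.9 in SOD1G93A and WT quiescent astrocytes, 20.6 ± 9.39 in SOD1G93A LPS-activated, 17.5 ± 1.14 in WT quiescent and 12.7 ± 1.94 in WT LPS-activated microglia. Neighbours among the first 3 in that order overlapped, as did SOD1G93A LPS-activated and WT quiescent microglia. Its log2 changes with activation were 0.59 in WT astrocytes (adjusted p = 0.0096), 0.36 in SOD1G93A astrocytes (adjusted p = 0.007) and -0.25 in WT microglia (adjusted p = 0.21).

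*Egr3* (chromosome 14, 70077203 to 70082614, plus strand), a target of EGR1 in other systems, was scarce in microglia, at 2 to 44 reads in a library. Astrocyte libraries held 64.4 to 109 RPM in the WT quiescent, 96.5 to 108 in the WT activated, 108 to 156 in the SOD1G93A quiescent and 95.1 to 143 in the SOD1G93A activated group. WT quiescent microglia held 4.33, 5.88 and 3.89, WT LPS-activated 2.09, 0.785 and 1.50, and SOD1G93A LPS-activated 1.86, 2.42 and 0.495, the last from 2 reads. The means were 124 ± 27.3, 113 ± 25.9, 102 ± 5.69 and 87.5 ± 22.2 in SOD1G93A quiescent, SOD1G93A activated, WT activated and WT quiescent astrocytes, 4.70 ± 1.05 in WT quiescent microglia, and 1.59 ± 0.990 and 1.46 ± 0.655 in SOD1G93A and WT LPS-activated microglia. Neighbours overlapped within astrocytes and within LPS-activated microglia. With LPS the log2 change was -1.44 (95% interval -2.25 to -0.64, adjusted p = 0.0062), lower in 3 of 3 libraries but not called. In astrocytes the estimates were 0.28 in WT (adjusted p = 0.17) and -0.05 in SOD1G93A cells (adjusted p = 0.8).

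Genes were compared per kilobase of exon, over all annotated exons of a gene, which can exceed the length of the transcript made. *Egr1* was the most abundant of the 10 in quiescent astrocytes, at 219 RPM per kilobase in WT and 301 in SOD1G93A cells. In activated astrocytes *Jun* stood at 111 in both genotypes and *Egr1* at 103 and 104. The order of these 2 depends on the lengths used, 3.189 kilobases for *Jun* and 4.484 for *Egr1*. Before division by length *Egr1* was higher, at 463 and 467 RPM in WT and SOD1G93A cells, against 355 and 354 for *Jun*. *Junb* led in all microglia, at 120.1 in WT quiescent, 257 in WT LPS-activated and 192 in SOD1G93A LPS-activated cells. *Fosb* was the least abundant in every astrocyte group, at 0.411 to 0.662, and *Egr3* in every microglial group, at 0.331 to 1.07. Summed per kilobase, the 3 EGR genes came to 202 to 372 in quiescent astrocytes, 144 to 179 in activated astrocytes and 11.1 to 27.6 in microglia. The 4 FOS genes came to 13.0 to 20.6 in quiescent and 51.6 to 68.7 in activated astrocytes, and to 22.8 to 24.8 in quiescent and 74.8 to 128 in LPS-activated microglia. JUN genes, 3 in number, came to 134 to 166 in quiescent and 257 to 269 in activated astrocytes, and to 288 to 295 in quiescent and 296 to 474 in LPS-activated microglia, and were the largest of the 3 sums in activated astrocytes and in all microglia.

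Genotype alone was compared in 3 settings, and none of the 10 genes was called in any. In quiescent astrocytes the limma fit called 0 of 12271 genes (0%), with 1068 at an unadjusted p below 0.05, and DESeq2 called 6 and edgeR 0, with no member among them. *Junb*, *Egr1* and *Egr2* were higher in every SOD1G93A library than in every WT library (3 of 10, against 7.07% of all genes), with log2 changes of 0.49, 0.46 and 0.44 (adjusted p = 0.44, 0.44 and 0.48). *Jund* was lower in every one (1 of 10, against 7.57%), at log2 -0.19 (adjusted p = 0.61). The remaining estimates lay between -1.22 for *Fosl1*, whose 95% interval ran from -2.59 to 0.16, and 0.61 for *Fosb*, from -0.31 to 1.52. Microglial markers, which mark cells rich in *Junb*, summed to 149.8, 207 and 256 RPM in the WT and 323, 340.2 and 226 in the SOD1G93A libraries, and their part in the *Junb* difference was not tested. Some other marker sums did not overlap between these genotypes. Oligodendrocyte lineage markers came to 2831 to 3009 RPM in WT and 3193 to 3437 in SOD1G93A libraries. Pericyte and fibroblast markers came to 128 to 165 and 78.7 to 92.0, and endothelial markers to 8.93 to 13.4 and 6.61 to 7.45. Sums of astrocyte markers (5122 to 6349 and 4272 to 5230) and neuronal markers (41.3 to 49.1 and 38.9 to 41.4) overlapped. Their part in the differences of the members was not tested either. Leaving out replicate 3 of the WT and replicate 1 of the SOD1G93A libraries, a choice made after seeing the data, gave *Egr1* 0.25, *Egr2* 0.19 and *Junb* 0.46.

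Among activated astrocytes 78 of 12098 genes (0.645%) were called between genotypes, and the 10 were not among them. DESeq2 called 83 and edgeR 84, but limma without a trend called 1. In normalized counts, though not in RPM, *Fosl2* and *Egr2* were higher in every SOD1G93A library (2 of 10, against 12.5% of all genes), at log2 0.19 and 0.22 (adjusted p = 0.16 and 0.11), and 0 of 10 were lower in every one, against 11.6%. In RPM no member was higher in every SOD1G93A library. *Fosl1* (55.8 to 68.7 RPM in WT and 40.3 to 55.5 in SOD1G93A) and *Junb* (141 to 148 and 125 to 138) were then lower in every one. The shares of all genes that did so in RPM were not computed, and the shares above are for normalized counts. The RPM ranges are therefore no result about the members. *Fosl1* stood at -0.32 (95% interval -0.55 to -0.09, adjusted p = 0.089), with groups that overlapped in normalized counts. *Jun*, *Jund* and *Egr1* stood at 0.04, 0.03 and 0.05, and changed sign after quantile normalization (-0.015, -0.0055 and -0.019). All 10 intervals excluded a 2-fold change except that of *Fosb*, whose upper bound was 1.01. The interaction of genotype and activation, which asks whether the 2 genotypes respond differently, called 0 of 12269 genes (0%) with limma, with 1018 at an unadjusted p below 0.05, against 21 by DESeq2 and 4 by edgeR. *Junb* had the smallest p of the 10 there, with a log2 difference of -0.60 (SE 0.16, adjusted p = 0.21), followed by *Fos* at -0.58 (adjusted p = 0.52) and *Egr1* at -0.41 (adjusted p = 0.53). The largest estimate was that of *Fosl1*, 0.88 (95% interval -0.38 to 2.15, adjusted p = 0.73), which ran from 0.43 to 2.60 over the alternatives. The highest value came with a depth class term (adjusted p = 0.0047, range over all alternatives 0.0047 to 0.99). The activation comparisons of WT and SOD1G93A astrocytes were thus not shown to differ for any of the 10. Microglial markers had a median log2 difference of -0.65 in the same interaction (9 tested, 0 called). Their part in the values of *Junb* and *Fos* was not tested.

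After LPS, 9 of the 10 could be tested between genotypes, since the mean of *Egr3* was too low. Limma called 0 of 10679 genes (0%), with 930 at an unadjusted p below 0.05, and DESeq2 called 2 and edgeR 0, with no member among them. *Fos*, *Fosb*, *Jun*, *Junb* and *Jund* were lower in every SOD1G93A library than in every WT library (5 of 9, against 9.09% of all genes), and 0 of 9 were higher in every one, against 9.09%. *Fos* had the largest of these differences, at log2 -0.69 (95% interval -1.12 to -0.26, adjusted p = 0.57), followed by *Fosb* at -0.49 and *Junb* at -0.43 (adjusted p = 0.57 each). For *Jun* and *Jund* the values were -0.26 and -0.23 (adjusted p = 0.57 and 0.58), and for *Fosl2* -0.24 (adjusted p = 0.67). *Egr2* was at 0.62 (adjusted p = 0.58), and at 0.29 without replicate 3 of the SOD1G93A libraries. Replicate 3 was the lowest SOD1G93A library for *Fos*, *Fosb*, *Fosl2*, *Jun*, *Junb* and *Jund* and the highest for *Fosl1*, *Egr1* and *Egr2*, and it also had the highest microglial marker sum. That sum was higher in every SOD1G93A library (3377, 3267 and 4983 RPM) than in every WT library (2878, 2979 and 3055), as was *Cspg4* (112, 107 and 212, against 61.3, 66.9 and 68.5), and the part of these differences in the lower values was not tested. Without replicate 3 of the SOD1G93A and replicate 1 of the WT libraries, left out together after seeing the data, *Fos* was at -0.48 (adjusted p = 0.00099, range over all alternatives 0.00099 to 0.69) and *Fosl2* at -0.39 (adjusted p = 0.0004, range 0.0004 to 0.94). *Junb* was then at -0.22 (adjusted p = 0.018, range 0.018 to 0.88), and *Egr2* at 0.16. None of these changes reached 2-fold. That fit held 2 libraries of each genotype, and the 2 left out were those that stood apart within their groups. A smaller spread, and with it smaller p-values, follows from that choice.

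SOD1G93A LPS-activated microglia were also compared with WT quiescent microglia, which mixes genotype with LPS and shares its controls with the WT comparison. There 5 of 10 were called, against 15.7% of 10921 genes, 4 higher (8.22% of all) and 1 lower (7.51%). Of 10 microglial markers 7 were called lower in that comparison (median log2 -1.46). Side by side with the WT response, the log2 changes were 1.91 and 2.60 for *Fos*, 1.14 and 1.63 for *Fosb*, 2.80 and 2.73 for *Fosl1*, 2.24 and 2.49 for *Fosl2*, 0.89 and 1.31 for *Junb* and -1.06 and -1.15 for *Egr1*. Members called in neither were at -0.50 and -0.24 for *Jun*, 0.33 and 0.56 for *Jund* and -1.46 and -1.44 for *Egr3*. *Egr2*, also called in neither, differed in sign, at 0.37 and -0.25. *Junb* was not called at 0.89, and without replicate 3 of the SOD1G93A libraries it was called at 1.06. *Fosb* was barely called (adjusted p = 0.00097), and the call was lost without any 1 of the WT quiescent replicates 1, 2 and 3 (log2 1.15, 1.05 and 1.23, adjusted p = 0.0056, 0.0072 and 0.0029) or of the SOD1G93A replicates 1 and 2 (1.06 and 1.02, adjusted p = 0.0049 for both). It was also lost with TMM (1.13, adjusted p = 0.0012), with RPM (0.88, adjusted p = 0.0025), without a trend (adjusted p = 0.0048) and with the replicate block (adjusted p = 0.0027), so 11 of 20 recomputed values kept it.

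At rest the 2 cell types differed in 7 of the 10 genes, while 47.3% of 12064 genes were called, 22.5% higher and 24.8% lower in microglia. *Junb* was 21.9-fold higher in WT quiescent microglia than in WT quiescent astrocytes (log2 4.45, SE 0.13, adjusted p = 5.3e-10), *Fosb* 7.22-fold (log2 2.85, SE 0.33, adjusted p = 1.6e-05), *Fosl2* 3.16-fold (log2 1.66, SE 0.22, adjusted p = 3.6e-05) and *Jund* 2.68-fold (log2 1.42, SE 0.09, adjusted p = 8.2e-08). These folds are approximate. Over the alternatives the log2 values ran from 3.82 to 4.58 for *Junb*, from 2.00 to 3.78 for *Fosb* and from 1.06 to 1.86 for *Fosl2*. The 3 EGR genes were lower in microglia, *Egr3* by log2 -3.58 (SE 0.21, adjusted p = 6e-08), *Egr1* by -2.78 (SE 0.12, adjusted p = 4.5e-09) and *Egr2* by -1.27 (SE 0.16, adjusted p = 2.9e-05), and lower under every scaling tried. With RPM in place of size factors the median of all genes moved by -0.59, *Jund* fell to 0.83 and was no longer called, and *Jun* changed from 0.27 to -0.31, so no direction is given for *Jun*. For *Jund*, 18 of 20 recomputed values kept the call. *Fos* at 0.94 (adjusted p = 0.0002) was under 2-fold, and 1.08 and called without replicate 2 of the WT quiescent astrocytes, but 0.35 with RPM (adjusted p = 0.045). Medium, age and isolation differ between the cell types and cannot be told apart from cell type. Microglial markers summed to 149.8 to 256 RPM in these astrocyte libraries, against 9080 to 9634 in the microglia. Astrocyte markers summed to 156 to 169 in the microglia, against 5122 to 6349 in the astrocytes. The part of cells of the other type in these folds was not tested.

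Whether activation acted differently in the cell types was tested by the difference of the WT responses, microglia minus astrocytes, and 2 of 10 were called, against 15.2% of 12334 genes (6.73% higher and 8.44% lower). *Fos* responded more in microglia, by a log2 difference of 1.72 (SE 0.19, adjusted p = 4.3e-06). *Junb* responded less, by -1.63 (SE 0.16, adjusted p = 1.7e-06), starting from its high quiescent level in microglia. Over the alternatives the difference ran from 1.18 to 1.85 for *Fos* and from -2.47 to -1.49 for *Junb*. *Fosb* at 1.61 (adjusted p = 0.0042), *Egr3* at -1.71 (adjusted p = 0.0022), *Fosl1* at -1.48 (adjusted p = 0.021), *Egr2* at -0.81 (adjusted p = 0.0095) and *Jun* at -0.67 (adjusted p = 0.011) did not pass. Leaving out 1 library brought in *Fosb* at 2.00 (without replicate 2 of the WT quiescent astrocytes), *Fosl1* at -1.95 (without replicate 3 of that group) and *Egr3* at -1.99 (without replicate 1 of the WT LPS-activated microglia). *Fosl2* at 0.02, *Egr1* at -0.08 and *Jund* at -0.09 had intervals within 2-fold (-0.62 to 0.67, -0.47 to 0.30 and -0.34 to 0.15), although *Fosl2* moved to -0.72 after quantile normalization. Stimulus and cell type cannot be told apart in this contrast.

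Other genes of the same pathways were described from 8 lists of 93 genes in all. The lists were chosen with earlier results of these data known, so their called shares are a description and no test of the pathways. The counts of called genes below stand beside 11.5% of all genes tested in WT astrocytes, 13.1% in SOD1G93A astrocytes, 20.8% with LPS in WT microglia, 15.7% in SOD1G93A LPS-activated against WT quiescent microglia and 15.2% in the difference of responses. Of the AP-1 partners and other bZIP factors, 10 of 13 could be tested in WT astrocytes and 5 were called, all higher (median log2 1.01 against 0.01 over all genes). They were *Atf3*, *Jdp2*, *Maff*, *Mafk* and *Nfil3*, and the largest changes were 2.50 for *Atf3*, 2.31 for *Nfil3* and 2.01 for *Maff*. In SOD1G93A astrocytes 4 of 10 rose, led by *Nfil3* (2.63), *Maff* (2.19) and *Atf3* (2.09), and in WT microglia 8 of 12 were called (median 1.20 against 0.00). *Batf*, which pairs with JUN proteins in immune cells, went from 2.10 to 12.7 normalized counts in WT quiescent to 598 to 765 in WT LPS-activated microglia, *Batf2* from 1.51 to 6.31 to 121 to 139, and *Nfil3* rose by log2 3.72. Among the EGR relative *Egr4* and the NAB corepressors, which bind EGR proteins, *Egr4* fell in WT and SOD1G93A astrocytes (log2 -2.45 and -3.14, 1 of 3 called each time) and *Nab1* rose in WT microglia (1.01, 1 of 2 tested).

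Of 20 other immediate early genes, 19 could be tested. In WT astrocytes 5 rose and 3 fell, in SOD1G93A astrocytes 7 rose and 2 fell, and in WT microglia 8 rose and 2 fell (medians 0.48, 0.45 and 0.65). *Ier3*, a survival gene, led in astrocytes at log2 4.05 in WT and 3.86 in SOD1G93A cells, ahead of *Gadd45b* (2.87 and 2.75) and *Klf4* (2.16 and 1.96). LPS raised *Gadd45b* by 5.99, *Nr4a3* by 5.72 and *Nr4a1* by 4.82 in WT microglia, whereas *Nr4a1* fell in astrocytes of both genotypes. Of SRF, its partners and CREB, which drive immediate early promoters, 0 of 8 were called in WT astrocytes and 1 in each of SOD1G93A astrocytes and WT microglia, *Crem* (1.08 and 2.93), or 12.5% against 13.1% and 20.8% of all genes. Of 14 MAP kinases and their kinases, *Map3k8*, a kinase of the LPS response, was the single gene called in WT astrocytes (0 to 5.87 normalized counts in quiescent and 53.5 to 74.2 in activated libraries) and in WT microglia (log2 2.78), and it rose in SOD1G93A astrocytes (3.43), where *Map2k6* fell (-1.07). The called shares of this list were 7.14% in WT astrocytes, 7.69% in WT microglia and 14.3% in SOD1G93A astrocytes, against 11.5%, 20.8% and 13.1% of all genes.

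MAP kinase phosphatases and feedback inhibitors, 15 of 16 tested, showed 3 higher and 0 lower in each astrocyte genotype, *Dusp8*, *Dusp16* and *Dusp4* (log2 1.66, 1.49 and 1.42 in WT, 1.99, 1.67 and 1.61 in SOD1G93A cells). In WT microglia 6 rose and 2 fell, with *Dusp5* at 3.88, *Dusp10* at 2.68, and *Dusp2* at 0 to 3.04 normalized counts in quiescent and 71.6 to 125 in LPS-activated libraries. Genes known to carry AP-1 sites were called in 8 of 13 in astrocytes of either genotype, all higher (61.5%, against 11.5% of all genes in WT and 13.1% in SOD1G93A cells), with medians of 2.02 in WT and 1.21 in SOD1G93A cells, and in 7 of 12 in WT microglia (58.3%, against 20.8%), 4 higher and 3 lower (median 0.28). *Timp1*, a protease inhibitor, rose by 5.94 in WT and 5.74 in SOD1G93A astrocytes. *Mmp3* had at most 2 reads in a WT quiescent astrocyte library, and 134 to 156 normalized counts in the activated ones, where *Mmp9* went from 0 to 2.13 to 134 to 182. In SOD1G93A astrocytes *Mmp3* went from 0.918 to 2.90 to 40.1 to 64.5 normalized counts and *Mmp9* from 0 to 4.64 to 82.3 to 87.2. In WT microglia *Il6* rose by 7.26 and *Mmp13* by 5.39, and *Plau* fell by 4.51 on the log2 scale. Heat shock genes of cell handling stress were called in 0 of 5 in both astrocyte comparisons and in 2 of 5 in WT microglia, *Hspa1a* (1.74) and *Hsph1* (1.19).

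SOD1G93A LPS-activated microglia were set against the same WT quiescent libraries, so these values share controls with those above. The normalized counts of those libraries differ slightly from the ones above because each table was normalized on its own 6 libraries. Of the bZIP factors 6 of 12 were called, with *Nfil3* at 3.08, *Batf* at 322 to 670.0 normalized counts against 2.24 to 13.5 and *Batf2* at 34.4 to 125 against 1.61 to 6.71. Other immediate early genes gave 6 higher and 2 lower of 19, led by *Nr4a3* (5.39), *Gadd45b* (5.12) and *Nr4a1* (4.22). *Crem* (2.31), *Map3k8* (2.58) and *Hsph1* (1.34) were the genes called in their lists, and the NAB list gave 0 of 2. Phosphatases and feedback inhibitors gave 4 higher and 1 lower of 15, with *Dusp5* at 3.17, *Dusp4* at 2.16 and *Dusp2* at 57.9 to 127 normalized counts against 0 to 3.23. Genes with AP-1 sites gave 3 higher and 2 lower of 12, with *Il6* at 6.86, *Mmp13* at 5.10 and *Plau* at -4.27.

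Between genotypes the lists gave 1 call, among activated astrocytes, in 1 of the 13 genes with AP-1 sites (7.69%, against 0.645% of all genes), and the other 7 lists gave 0 there. *Mmp3* was at 135, 116 and 120.5 normalized counts in WT and 62.4, 50.6 and 38.7 in SOD1G93A activated astrocytes (log2 -1.30, SE 0.16, adjusted p = 1.9e-05). Limma without a trend called 1 gene higher and 0 lower in that comparison, so *Mmp3* was not called by it. In the main fit no other gene of the 8 lists was called there, in quiescent astrocytes, in LPS-activated microglia or in the interaction. Several marker sums were also lower in every SOD1G93A than in every WT activated astrocyte library. Pericyte and fibroblast markers came to 97.2 to 126 RPM in WT and 77.7 to 83.8 in SOD1G93A cells, and endothelial markers to 137 to 153 and 111 to 118. Neuronal markers came to 55.1 to 62.2 and 39.7 to 46.5, and astrocyte markers to 4580 to 4600 and 4467 to 4557. Microglial and oligodendrocyte lineage sums overlapped. The part of these lists in the *Mmp3* difference was not tested. In the difference of responses between cell types, 10 of the 13 genes with AP-1 sites were called, 2 higher and 8 lower in microglia, with a median of -1.58 against 0.00 over all genes. Of the phosphatases and feedback inhibitors 4 were higher and 3 lower, and 4 of 12 bZIP factors were called.

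Genes whose pattern lay closest to each member were found by Pearson r of log2 RPM, as a description, among 9967 genes over the 12 astrocyte and 8108 genes over the 9 microglial libraries. The libraries fall into conditions, which these values follow. *Fosb* in astrocytes and *Egr3* in microglia were below a mean of 10 RPM and were not compared. In astrocytes, *Fosl1* lay closest to *Nfe2l2* (r = 0.997), *Fosl2* to *Chml* (0.996), *Junb* to *Mast4* (0.996), *Jund* to *Rhob* (0.991), *Egr1* to *Klf12* (0.987), *Jun* to *Capn2* (0.98), *Egr3* to *Eif3m* (0.939), *Fos* to *Atp8a1* (0.923) and *Egr2* to *Nsa2* (0.909). In microglia, *Fos* lay closest to *Por* (0.998) and then to *Nfkbie* (0.997), *Jun* to *Elf2* (0.996), *Egr1* to *St3gal2* (0.996), *Fosl2* to *Cldnd1* (0.996) and then to *Nab1* (0.995), *Fosb* to *Zfp52* (0.995), *Junb* to *Plekhn1* (0.995), *Fosl1* to *Surf4* (0.99), *Jund* to *Syf2* (0.9747) and *Egr2* to *Canx* (0.933).

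Promoters were looked at because several members moved together with LPS. RefSeq promoter sequences of GRCm38.p6 were found for 7 of the 10, not for *Fosl1*, *Egr1* or *Egr3*, and the 250 bases before each start site were searched on both strands. Those start sites are not always the gene starts given above. The *Jund* window ended at 70697738, well before its gene start at 70698949, so the bases next to that start were not searched. The *Fosl2* window (32136222 to 32136471) lay inside the gene, which starts at 32135801, as did the *Egr2* windows with a CArG box. The AP-1 motif was searched as TGAGTCA. The CRE was searched as TGACGTCA. The EGR motif was searched as GCGTGGGCG. The TATA box was searched as TATAAA, together with the CArG box and the kappaB motif by name. A kappaB motif stood in the windows of *Fos*, *Fosb*, *Fosl2* and 1 of 5 windows of *Egr2*, and in 5% of all 32851 promoter windows. *Fos* also held TATAAA (12.4% of all windows), and the other 4 *Egr2* windows a CArG box (1.47%), at 2 distinct sites, since 3 of those windows overlap and hold the same one. The letters of AP-1 (4.46%), CRE (1.55%) and EGR (0.536%) stood in no member's window, no motif overlapped another, and a match is a description of the letters only. The promoters of *Fos* (chr12:85473640-85473889, plus strand), *Fosb* (chr7:19310046-19310295, minus strand) and *Junb* (chr8:84978749-84978998, minus strand) are shown for 3 of the genes that rose with LPS in WT microglia, with the kappaB motif and TATAAA in capitals and no such motif in *Junb*.
Fos: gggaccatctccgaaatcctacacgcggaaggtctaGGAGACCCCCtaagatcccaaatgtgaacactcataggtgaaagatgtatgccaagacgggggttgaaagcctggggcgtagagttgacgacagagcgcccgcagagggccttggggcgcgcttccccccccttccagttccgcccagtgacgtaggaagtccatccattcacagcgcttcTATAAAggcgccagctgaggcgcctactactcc
Fosb: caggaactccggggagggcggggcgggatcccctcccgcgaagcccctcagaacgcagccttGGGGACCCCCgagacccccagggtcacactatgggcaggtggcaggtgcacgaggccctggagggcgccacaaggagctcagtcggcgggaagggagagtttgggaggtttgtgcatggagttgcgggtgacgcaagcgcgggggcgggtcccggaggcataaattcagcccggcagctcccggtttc
Junb: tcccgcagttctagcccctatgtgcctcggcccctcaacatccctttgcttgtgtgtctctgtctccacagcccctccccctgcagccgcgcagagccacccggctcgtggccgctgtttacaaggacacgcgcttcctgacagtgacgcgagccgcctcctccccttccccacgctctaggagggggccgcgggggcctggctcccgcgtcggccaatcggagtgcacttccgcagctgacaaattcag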

How the data were processed

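Strand-specific polyadenylated RNA libraries were sequenced as paired ends. The authors aligned reads to mm10 with STAR, counted them per gene with RSEM and deposited, for each comparison of 6 libraries, a signal that is the DESeq2 normalized count, beside columns of baseMean, log2FoldChange, lfcSE, stat, pvalue and padj that were not used. The annotation they used was not found in the labels or tables. In every column all values (100%, tolerance 0.001) were whole multiples of 1 step, which gave back the reads and so the depth of each library. Where a library stood in several of the deposited tables, the reads given back were the same, with 0 genes differing.

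The 10 genes, the 8 pathway lists (93 genes) and the 6 marker lists (52 genes) were chosen with earlier results of these data known. Tests used limma 3.58.1 with a trend in R 4.3.3 on log2(normalized count + 1), for genes with a mean of at least 10, with Benjamini-Hochberg adjustment over all genes tested. A gene was called at an adjusted p below 0.001 and a change above 2-fold. The comparison of SOD1G93A activated with quiescent astrocytes, the interaction and the contrasts between cell types used reads rescaled together by size factors. Alternatives used edgeR 4.0.16, DESeq2 1.42.0, other scalings, pseudocounts, filters and thresholds, and left out each library in turn. Genes named from a pathway list were the 3 called with the largest change in each activation comparison and all called between genotypes. Other names from the lists were chosen after their values were seen. For 2 genes of the pathway and marker lists, results of their own are not reported here. Exon lengths and positions were from GENCODE on GRCm38, promoters from RefSeq. Tables and figures were made with python 3.11.15, pandas 2.3.3 and matplotlib 3.10.9.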

Additional observations from a re-analysis of the deposited data

Results flagged for a closer look

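The responses of *Fos* and *Junb* differed between the cell types by the test of the difference itself. The log2 response of WT microglia to LPS minus that of WT astrocytes to IL-1α, TNFα and C1q was 1.72 for *Fos* and -1.63 for *Junb*. Over the alternatives these values ran from 1.18 to 1.85 and from -2.47 to -1.49. Stimulus, medium, age and cell type cannot be told apart in this difference.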

How the results depend on the processing

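Of 2091 log2 fold changes recomputed for 99 results, 1999 kept their direction and their side of the threshold, 16 fell below it, 37 passed it and 39 changed sign, in 16 results whose largest size was 0.35 on the log2 scale. None of those was a called value. Where a value changed, the cause was not tested unless stated.

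At an adjusted p below 0.05 and any fold change, 8 members and 4722 genes were called in WT astrocytes (4 and 1424 in the report), 7 and 5262 in SOD1G93A astrocytes (4 and 1604), 9 and 5883 in SOD1G93A LPS-activated against WT quiescent microglia (5 and 1718), and 7 and 5052 for the difference of responses (2 and 1871). The looser limit also gave 9 members and 6185 genes for LPS in WT microglia (6 and 2263), 8 and 9448 between cell types (7 and 5702), and, with 0 members each, 879 between activated genotypes (78), 7 between quiescent genotypes, 34 for the interaction and 1 between LPS-activated genotypes (0 for the last 3). With a 2-fold limit added, these were 123, 4, 28 and 1, and 5 members and 2855 genes for the difference of responses. DESeq2 called 4 members there, *Fos*, *Fosb*, *Junb* and *Egr3*, of 2184 genes in all, and 6, 21 and 2 genes where limma called 0 (quiescent genotypes, interaction, LPS-activated genotypes), with 1068, 1018 and 930 at an unadjusted p below 0.05, and edgeR called 0, 4 and 0. A depth class term gave 13, 56 and 1 there, and a pseudocount of 5 gave 3 for the interaction. Limma without a trend called 1 gene between activated genotypes. A depth class term could not be fitted there, since depth class equals genotype. Leaving out both libraries that stood apart, chosen after seeing the data, gave 2 genes between quiescent and 3 between LPS-activated genotypes, and 0 members.

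Leaving out each library gave 1087 to 1547 genes in WT astrocytes (members 3 to 4), 1465 to 1611 in SOD1G93A astrocytes (4 to 4), 67 to 81 between activated genotypes, 0 to 6 for the interaction (6 without WT quiescent astrocyte replicate 1), 1991 to 2334 for LPS in WT microglia (6 to 6), 1263 to 2187 in SOD1G93A LPS-activated against WT quiescent microglia (4 to 6), 5230 to 5575 between cell types (7 to 8) and 1593 to 1848 for the difference of responses (2 to 3). The other genotype comparisons gave 0 to 0. Libraries of the same replicate number showed no pairing, with correlations of their deviations from group means from -0.436 to 0.134. Libraries of different numbers could be more alike. In quiescent astrocytes WT replicate 3 and SOD1G93A replicate 1, the deepest of their groups, correlated at 0.522. There WT replicate 1 and SOD1G93A replicate 3, the shallowest, correlated at 0.351. The part of depth in this was not tested. With the replicate block *Fosb* in SOD1G93A LPS-activated against WT quiescent microglia stood at 1.14 and was no longer called (adjusted p = 0.0027).

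RPM in place of size factors moved the median of all genes by -0.20 in both LPS comparisons against quiescent microglia, by -0.59 between cell types and by -0.17 for the difference of responses. Calls higher and lower became 903 and 1483 for LPS in WT microglia (1110 and 1153), 752 and 1133 for SOD1G93A LPS-activated against WT quiescent microglia (898 and 820), and 1852 and 4468 between cell types (2716 and 2986). Over 70 levels, 53 moved by more than 1 SD under size factors over the 21 libraries, and the highest condition changed for *Jun* alone.

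These values changed sign. Quantile normalization gave *Fosb* -0.17 in WT astrocytes, *Jun* -0.015, *Jund* -0.0055 and *Egr1* -0.019 between activated genotypes, *Jun* -0.27 between cell types and *Fosl2* -0.72 for the difference of responses. RPM gave *Jun* -0.0035 and *Jund* -0.015 between activated genotypes, *Jun* -0.31 between cell types and *Fosl2* -0.18 for the difference of responses, where TMM gave -0.0475. For *Fosb* in WT astrocytes DESeq2 gave -0.0588, edgeR -0.0806 and the depth class term -0.044. Without both libraries that stood apart, *Fosl2* was at 0.0080 between quiescent genotypes, and *Fosl1* at -0.13 and *Egr1* at -0.048 between LPS-activated genotypes.

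Leaving out 1 library changed the sign of others. Between quiescent genotypes *Fosl2* ranged from -0.37 to 0.0696 and *Jun* from -0.23 to 0.0615, both positive without WT replicate 3. In WT astrocytes *Fosb* ranged from -0.34 (without quiescent replicate 2) to 0.25. Between activated genotypes *Jun* ranged from -0.0146 (without WT replicate 2) to 0.0821, and without SOD1G93A replicate 2 the lowest values were reached of *Jund* (-0.0080 to 0.0763), *Egr1* (-0.0393 to 0.12) and *Egr3* (-0.0163 to 0.27). *Jund* was also at -0.0037 without WT replicate 1. In SOD1G93A astrocytes *Fosb* ranged from -0.47 to 0.0096 (without activated replicate 1) and *Egr3* from -0.24 to 0.10 (without quiescent replicate 3), with 0.0186 and 0.0552 without activated replicates 1 and 3. For the interaction *Fosb* ranged from -0.55 to 0.0404 (without WT quiescent replicate 2) and *Jun* from -0.0299 (without WT quiescent replicate 3) to 0.28. Between LPS-activated genotypes *Fosl1* ranged from -0.14 (without SOD1G93A replicate 3) to 0.18 and *Egr1* from -0.0021 (without WT replicate 1) to 0.23. For the difference of responses *Fosl2* ranged from -0.18 to 0.29 and *Egr1* from -0.23 to 0.0422, and the values -0.18 and 0.0422 were those without WT quiescent astrocyte replicate 3.

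*Fosb* in astrocytes, *Fosl1* in quiescent cells and *Egr3* in microglia rest on few reads per library.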
